A study of Homo sapiens with 10 samples.

Results

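Cultures of neurons made from the human embryonic stem cell line RUES2 were divided by how much POU4F1 messenger RNA their libraries held. Every culture carried a tdTomato reporter at AVIL (RUES2-Avil:tdT), was labelled as sensory neurons and was taken for bulk RNA-seq at day 60 in vitro. The 10 libraries came from 3 differentiation protocols aimed at nociceptors (4 libraries, N1 to N4), low-threshold mechanoreceptors (3 libraries, M1 to M3) and proprioceptors (3 libraries, P1 to P3). A library at 6 TPM of POU4F1 or more was placed on the high side and the others on the low side, whatever the protocol, where TPM is a transcript level adjusted for gene length and library size. The members of each side were thus chosen by the measured POU4F1 level alone. This put 5 of the 10 libraries on each side: N1, N4, M1, M2 and P3 were high, and N2, N3, M3, P1 and P2 were low. Each protocol therefore had libraries on both sides. The sides are not treatments, so a difference between them is an association with the POU4F1 level of a library. All libraries share 1 cell line, and the titles call them biological replicates without naming separate differentiations. The p-values reflect only the variation among these 10 libraries, part of which may be technical.

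POU4F1, also called BRN3A, is a POU homeodomain transcription factor of somatic sensory neurons in the dorsal root and trigeminal ganglia. It acts with ISL1 in these neurons as they mature, and it is not a marker of sympathetic or parasympathetic neurons. Autonomic neurons arise from the same neural crest and are marked by PHOX2A and HAND2, which take part in turning on the enzymes of noradrenaline synthesis. The question for the comparison was whether sensory and autonomic neuron genes differed between the POU4F1 sides.

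The rule used POU4F1 itself, so its level is only described. The gene sits on chromosome 13 (78598362 to 78603552, GRCh38.p14). It stood at 8.11, 17.8, 15.4, 10.4 and 18.0 TPM in N1, N4, M1, M2 and P3 and at 1.93, 1.60, 4.64, 3.68 and 3.67 TPM in N2, N3, M3, P1 and P2. The library just inside the threshold was N1 and the one just outside it was M3. These levels rested on 1038 to 2021 estimated counts per library on the high side and 155 to 457 on the low side. Values by library below keep this order of libraries on each side. Named genes received between 27891186 and 44541262 counts per library.

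The cultures also differed in how much RNA of non-neuronal cells they held, and this divided them in nearly the same way. The mean level of 16 listed fibroblast and mesenchyme genes, 15 of them tested, is given as log2 CPM, where CPM scales a count by the total of its library. This level was 5.46, 2.66, 0.83, 1.19 and 1.25 on the high side and 5.58, 5.54, 4.91, 1.66 and 4.86 on the low side. N1 was thus rich in mesenchyme RNA on the high side, and P1 was poor in it on the low side. The summed TPM of the mesenchyme list ran from 478 to 2063 on the high side and from 489 to 4690 on the low side. Schwann and satellite glia genes followed, with summed TPM of 128 to 4927 on the high side and 237 to 6288 on the low side. No marker of either list was at 0 throughout a side, and only PDGFRA in P1, PRRX1 in M2 and FOXD3 in M2 were listed at 0 in a library. In bulk RNA, fewer cells of a type and less RNA per cell cannot be told apart.

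**Figure D1:**
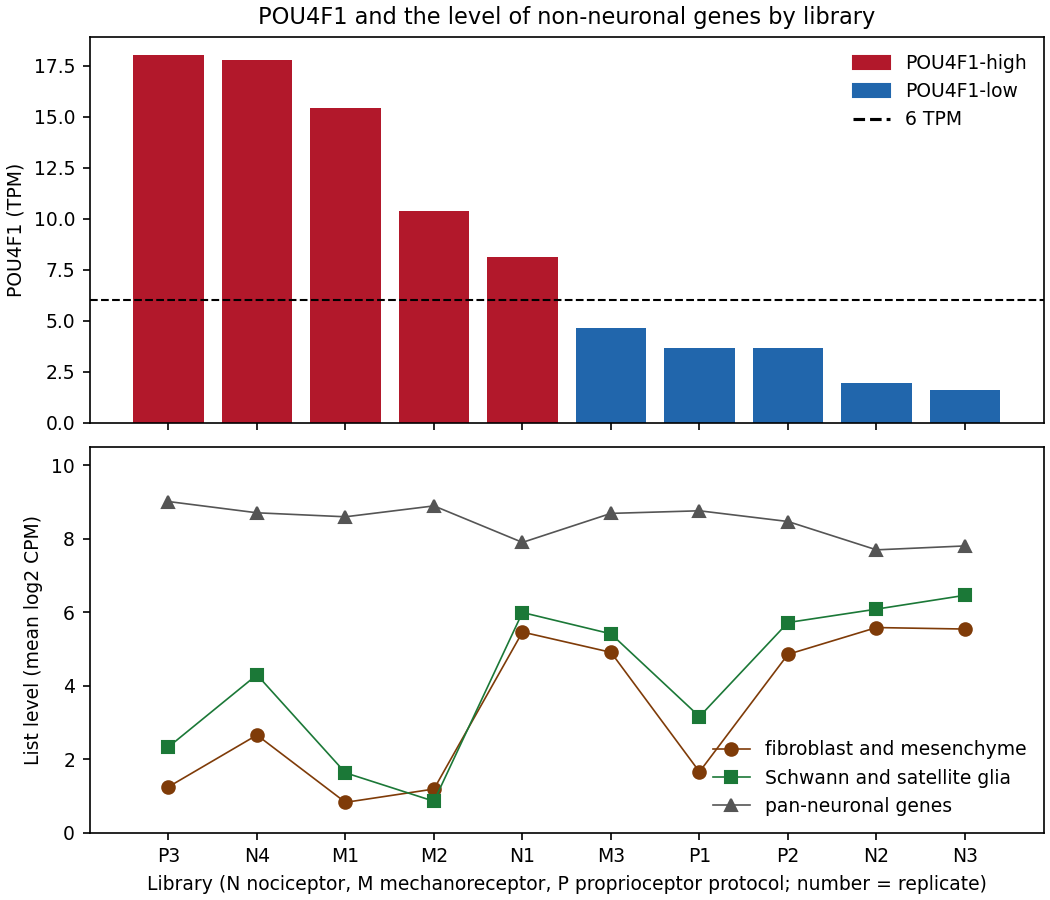
POU4F1 in TPM (top) and the mean log2 CPM of mesenchyme, glia and pan-neuronal gene lists (bottom) in each of the 10 libraries, ordered by falling POU4F1; the dashed line is the 6 TPM threshold. The high libraries run from 8.11 to 18.0 TPM and the low ones from 1.60 to 4.64 TPM, and N1 and P1 have a mesenchyme level unlike the rest of their side.

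Across all genes no difference passed the test. With edgeR's quasi-likelihood test of high against low libraries, 0 of 15507 tested genes (0%) had an adjusted p under 0.05, and the smallest adjusted p was 0.214. At an unadjusted p under 0.05 there were 2604 genes (16.8%), of which 1201 (7.74%) were higher and 1403 (9.05%) lower in the high libraries. When 1 library was left out, that total was 3780 without N1 and 3668 without P1. It was 1668 without N2, 1611 without N3, 1677 without M1 and 1830 without P3, and 2411 to 2564 without any other library. Refits of the lists below are to be read beside these totals. DESeq2's Wald test on the same counts called 175 genes higher (1.16%) and 298 lower (1.97%). When POU4F1 was entered as a continuous level in edgeR in place of the sides, 209 genes (1.35%) had a positive slope and 472 (3.04%) a negative one at the same threshold. Below, log2 fold changes are high minus low from edgeR, and none passed the adjusted threshold in that fit. The value after ± is an approximate standard error. It is the size of the log2 fold change divided by the square root of the F statistic of the quasi-likelihood test.

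More sensory transcription factors were higher than lower in the high libraries, but the mean level of the list overlapped between the sides. The mean log2 CPM of the 20 listed factors was 1.72, 2.25, 2.23, 2.49 and 2.03 on the high side. On the low side it was 1.46, 1.21, 1.98, 2.31 and 2.20, so P1 and P2 both exceeded N1 and P3. Of 20 listed factors 16 were tested, 11 were higher and 5 lower, 6 reached an unadjusted p under 0.05, all of them higher, and the median log2 fold change was 0.69. Counted in either direction, as in all refits below, that 6 was 2 without N2, N3 or M3 and 3 without P2 or P3, 2 with the mesenchyme covariate described below and 1 with the replicate number as a block. Over all tested genes the median was -0.02, with 49.0% of genes higher and 7.74% higher at an unadjusted p under 0.05. The 4 factors that the filter on low counts removed included NEUROG1 and NEUROG2, which act in precursors.

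ISL1, the LIM homeodomain partner of POU4F1, stood at 250, 315, 400, 296 and 417 TPM in the high libraries and at 104, 132, 157, 204 and 210 TPM in the low ones. Every high library lay above every low one, which was the case for 396 of the tested genes (2.55%), although the sides overlapped on CPM scaled by TMM, edgeR's library scaling, where 266 of the tested genes (1.72%) lay above. Its log2 fold change was 0.75 ± 0.32 (edgeR adjusted p = 0.274). DRGX, a homeodomain factor of pain-pathway neurons, was at 15.2, 35.9, 97.0, 60.2 and 45.3 TPM against 12.3, 8.85, 23.4, 11.96 and 30.7 TPM. The sides overlapped only through N1, whose DRGX lay below that of M3 and P2. Its log2 fold change was 1.33 ± 0.42 (edgeR adjusted p = 0.227).

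ISL2 and SHOX2 likewise overlapped only through N1. ISL2 was at 10.2, 59.6, 46.4, 37.8 and 170 TPM in the high libraries and at 4.68, 9.05, 8.95, 26.1 and 18.6 TPM in the low ones, with a log2 fold change of 1.84 ± 0.74. SHOX2, a homeodomain factor of touch-sensing neurons, was at 13.7, 45.6, 70.9, 53.5 and 89.0 TPM against 3.47 to 30.9 TPM in the low ones. TLX3, a homeobox factor of glutamatergic fate, ranged from 6.57 to 37.0 TPM against 3.24 to 16.3 TPM, where P2 exceeded N1, M1 and M2. N1 held the lowest value of the high side for each of ISL1, DRGX, ISL2, TLX3 and SHOX2. These 5 factors were higher in the high libraries than in the low ones within each of the 3 protocols, as were 1341 of the tested genes (8.65%) in TPM and 974 (6.28%) on the scaled CPM.

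POU4F3, a POU4F1 paralogue, reached 4.52 TPM in N4 and 4.02 TPM in M2, but was at 0.826 TPM or lower in the other high libraries and between 0.0571 and 0.229 TPM in the low ones. ETV1, an ETS factor of proprioceptors, was at 62.9 to 251 TPM on the high side and 34.4 to 103 TPM on the low side. EYA1, a transcriptional coactivator of sensory precursors, went the other way. It was at 0.372, 0.462, 4.88, 11.5 and 0.302 TPM in the high libraries and at 9.91, 7.63, 16.9, 6.56 and 14.5 TPM in the low ones, with a log2 fold change of -1.86 ± 0.91 (edgeR adjusted p = 0.322). M2 overlapped the low side.

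Receptors and channels of somatosensory neurons gave the largest difference of the sensory lists in TRPM8, the cold and menthol receptor, on chromosome 2 at 233917373 to 234019522. TRPM8 stood at 3.45, 28.7, 26.2, 14.6 and 22.6 TPM in the high libraries and at 2.96, 0.562, 3.13, 2.87 and 0.689 TPM in the low ones. All high libraries were above all low ones, as for 2.55% of tested genes, but N1 only narrowly above M3, and on the TMM-scaled CPM the sides overlapped. The log2 fold change was 3.99 ± 0.70 (edgeR adjusted p = 0.214). Without N1 it was 4.28 ± 0.48, and TRPM8 was then the only gene called (edgeR adjusted p = 0.0386).

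P2RX3, the ATP receptor subunit of nociceptors, was at 173, 404, 468, 402 and 486 TPM against 54.2, 86.5, 227, 67.1 and 188 TPM. N1 fell among the low libraries, and the log2 fold change was 1.49 ± 0.38. PIEZO2, the mechanically gated channel of touch and proprioception, was at 48.6 to 341 TPM against 21.1 to 82.8 TPM, with a log2 fold change of 1.32 ± 0.54. NTRK2, the BDNF receptor TrkB, was at 73.6 TPM in P3 and at 12.9 to 29.8 TPM in the other high libraries, against 7.24 to 20.9 TPM. The mean log2 CPM of the 18 listed receptors and channels was 2.73, 2.72, 2.17, 2.47 and 2.49 on the high side. On the low side it was 1.90, 1.95, 2.85, 2.08 and 2.77. The sides thus overlapped in list level, and M3 and P2 lay above every high library. Of 15 tested receptors and channels 12 were higher and 3 lower, and the median log2 fold change was 0.39. An unadjusted p under 0.05 was reached by 5 (all higher), against 7.74% of all tested genes in that direction. The count of 5 was 3 without N2, M3 or P3 and 8 without N1. Over all tested genes the total of 2604 was 1668, 2564, 1830 and 3780 in those refits. TRPM8 and P2RX3 were among the genes that DESeq2 called, with adjusted p of 3.28e-06 and 0.0196.

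GFRA3, the artemin co-receptor of peptidergic nociceptors, was among the 3 lower members. It stood at 777 TPM in N1 but at 0.202 to 25.8 TPM in the other high libraries, and at 201, 2558, 257, 9.22 and 343 TPM in the low ones. P1 and N1 were thus again the exceptions of their sides. The log2 fold change of GFRA3 was -2.08 ± 1.82.

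**Figure D2:**
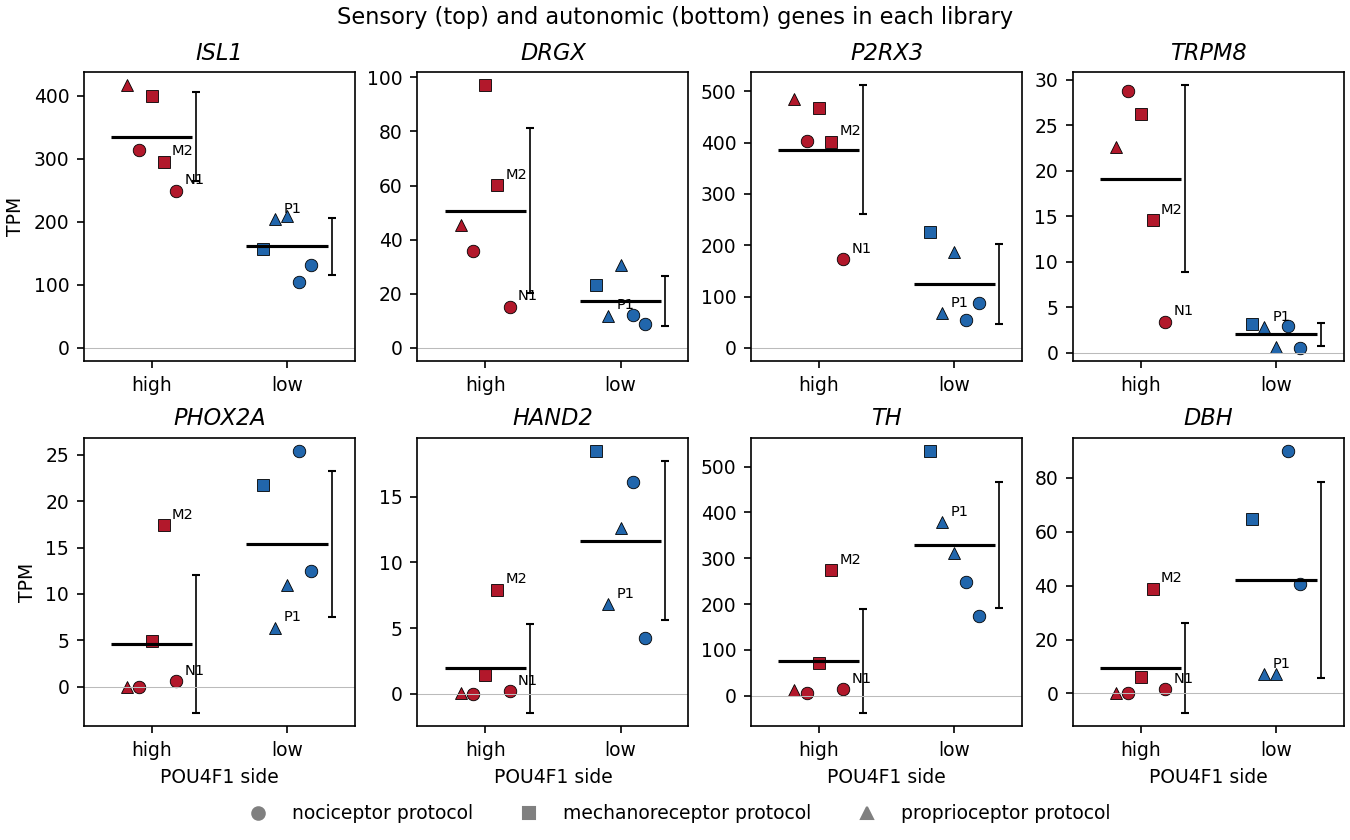
TPM of 4 sensory genes (top) and 4 autonomic genes (bottom) in the 5 high and 5 low libraries; each point is a library, marker shape gives the protocol, the horizontal line is the mean and the bar beside it the SD, which can extend below 0. ISL1 and TRPM8 do not overlap between the sides, DRGX and P2RX3 overlap through N1, and the 4 autonomic genes overlap through M2.

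Peptides and glutamate transporters did not lean one way. Of 10 tested members 4 were higher and 6 lower, and the median was -0.63 on the log2 scale. This rested on P1, without which 6 were higher and the median was 0.34. SLC17A7, the vesicular glutamate transporter 1, was at 5.74, 23.2, 20.6, 21.5 and 18.7 TPM in the high libraries and at 3.52, 1.77, 6.73, 7.35 and 6.39 TPM in the low ones. ADCYAP1, the precursor of the peptide PACAP, was at 7.32, 18.0, 20.0, 32.9 and 3.64 TPM against 35.7, 32.4, 106, 25.6 and 99.0 TPM. M2 and P1 crossed for ADCYAP1 in TPM, whereas the high libraries lay below the low ones on the scaled CPM (235 tested genes, 1.52%), and its log2 fold change was -1.98 ± 0.53 (edgeR adjusted p = 0.214; DESeq2 adjusted p = 0.0212). TAC1, the substance P precursor, was at 1693 TPM in N1 and 39.8 to 274 TPM in the other high libraries, against 230 to 1136 TPM. SST, the somatostatin precursor, reached 13358 TPM in P1.

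Autonomic transcription factors were lower in the high libraries. All 7 tested of 10 listed had negative log2 fold changes, with a median of -2.77, and 5 reached an unadjusted p under 0.05, against 9.05% of all tested genes in that direction. The count of 5 was 2 without N2 or M1, 3 without N1, M3 or P2 and 7 without M2, and all 7 were negative in each of these refits. PHOX2A, a homeodomain factor of noradrenergic neurons, on chromosome 11 at 72239077 to 72244176, stood at 0.603, 0, 4.98, 17.4 and 0 TPM in N1, N4, M1, M2 and P3. In the low libraries it stood at 25.4, 12.5, 21.7, 6.36 and 10.9 TPM. N1, N4 and P3 were near or at 0, while M1 and M2 carried it and M2 exceeded N3, P1 and P2. The counts of 0 in N4 and P3 allow up to 3 counts each, or 0.108 and 0.0803 CPM, and such limits cover counting error only. The log2 fold change of PHOX2A was -1.99 ± 1.29 (edgeR adjusted p = 0.441).

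HAND2, a bHLH factor of sympathetic neurons, was at 0.222, 0, 1.43, 7.94 and 0.0731 TPM against 16.1, 4.25, 18.5, 6.81 and 12.6 TPM. M2 again lay within the low side. The log2 fold change was -2.95 ± 1.23. GATA3, a zinc-finger factor of sympathetic neurons, did not exceed 0.596 TPM on the high side and ranged from 0.323 to 3.46 TPM on the low side, with a log2 fold change of -3.43 ± 1.13.

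Within each protocol, PHOX2A, HAND2 and TFAP2B (a crest and sympathetic factor) were lower in every high library than in every low one, as were 681 of the tested genes (4.39%). On the scaled CPM 1250 of the tested genes (8.06%) were so arranged. With protocol as a covariate in edgeR, the log2 fold change of PHOX2A was -5.59 ± 1.47 (adjusted p = 0.0939) and that of HAND2 was -5.80 ± 1.34 (adjusted p = 0.0747). The median of the autonomic factors was then -5.26. The mechanoreceptor libraries M1 and M2 had more of these factors than the high libraries of the other protocols, and M3 in turn had more than M1 and M2. Whether the difference between sides depended on protocol cannot be decided with these libraries. Each protocol had only 1 or 2 libraries on a side, so an interaction fit of side and protocol had little power.

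**Figure D3:**
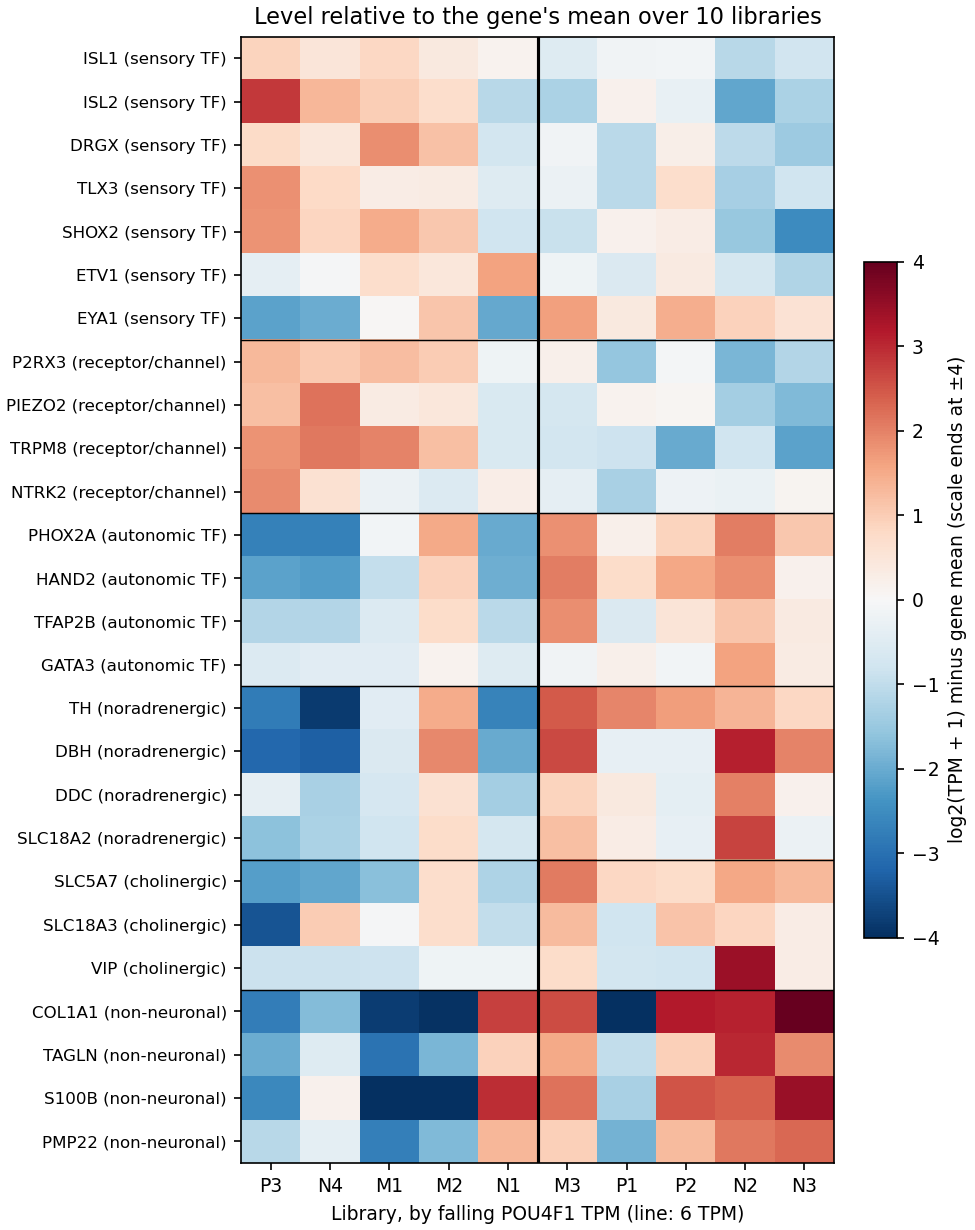
log2(TPM + 1) minus each gene's mean over the 10 libraries, for 26 sensory, autonomic and non-neuronal genes in rows and libraries in columns ordered by falling POU4F1, with red above and blue below the mean. PHOX2A, HAND2, TH and DBH are lowest in P3, N4 and N1, and the non-neuronal genes are high in N1 as in 4 of the 5 low libraries.

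Noradrenergic genes had a median log2 fold change of -2.07, with 9 of 11 tested members lower and 2 higher. At an unadjusted p under 0.05, 4 members were lower, against 9.05% of all tested genes. Without N2 that count was 1 and the median -1.29, without P1 the count was 2, and without M2 it was 6. TH, tyrosine hydroxylase, the first enzyme of catecholamine synthesis, was at 14.2, 5.82, 70.9, 273 and 12.95 TPM in the high libraries and at 248, 174, 534, 378 and 312 TPM in the low ones. Only M2 overlapped the low side. The log2 fold change of TH was -2.43 ± 0.93 (edgeR adjusted p = 0.250). DBH, which makes noradrenaline from dopamine, was at 1.56, 0.0933, 5.95, 38.9 and 0.182 TPM against 90.1, 40.8, 64.9, 7.26 and 7.30 TPM. SLC18A2, the vesicular monoamine transporter, reached 8.73 TPM in M2 and was at 0.858 to 2.60 TPM in the other high libraries, against 3.66 to 37.1 TPM. DDC, the decarboxylase of the pathway, was at 0.788 to 5.89 TPM against 2.46 to 17.4 TPM.

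Cholinergic genes were mixed in size: 5 of 6 were lower and the median was -0.54 on the log2 scale. SLC5A7, the choline transporter, was at 1.25, 0.257, 0.680, 7.70 and 0.140 TPM against 14.5, 12.1, 21.3, 8.39 and 7.85 TPM. The sides did not overlap in TPM, as for 69 of the tested genes (0.445%), but M2 lay close to P2 and the sides overlapped on the scaled CPM. The log2 fold change of SLC5A7 was -2.73 ± 0.86 (edgeR adjusted p = 0.227; DESeq2 adjusted p = 0.0281). SLC18A3, the vesicular acetylcholine transporter, overlapped widely, at 1.15 to 46.9 TPM against 12.7 to 55.6 TPM. VIP, a peptide of parasympathetic neurons, was at 18.3 TPM in N2 and at 2.00 TPM or lower elsewhere.

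Ganglionic acetylcholine receptors were split evenly, with 3 of 6 higher and a median of -0.05. CHRNB4, a nicotinic subunit of autonomic ganglia, was at 0.671 to 15.4 TPM against 6.44 to 19.9 TPM. CHRM2, the M2 muscarinic receptor, was at 46.0, 27.4, 43.2, 39.7 and 64.7 TPM against 13.7, 15.1, 34.3, 25.8 and 30.1 TPM, with a log2 fold change of 1.00 ± 0.32. It was higher on the high side within each protocol. Among 5 tested visceral sensory genes 4 were lower, including P2RX2, an ATP receptor subunit also found in nodose neurons, at 0 to 0.960 TPM against 0.336 to 4.70 TPM.

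Of 12 genes that sensory and autonomic neurons share 6 were higher, with a median log2 fold change of -0.03. This rested on P1, without which 8 were higher and the median was 0.40. PRPH, peripherin, was at 434 to 1260 TPM against 366 to 911 TPM, with a log2 fold change of 0.05 ± 0.41 whose sign changed in several refits. SCN9A, which encodes Nav1.7 of pain-sensing neurons, ranged from 127 to 258 TPM against 64.2 to 138 TPM. Of 15 pan-neuronal genes 12 were higher, with a median log2 fold change of 0.42, which was -0.11 with the mesenchyme covariate. DCX, doublecortin of young neurons, was at 141 to 439 TPM against 89.5 to 271 TPM.

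Non-neuronal lists lay on the low side. All 15 tested mesenchyme genes and all 13 glial genes were lower in the high libraries, with medians of -1.57 and -1.19. Of them 5 and 3 reached an unadjusted p under 0.05, against 9.05% of all tested genes in that direction. Without N1 these medians were -3.85 and -3.12, with 12 of 15 and 10 of 13 genes at that p, and with the replicate block they were -3.27 and -3.07. COL1A1, the collagen of fibroblasts, was at 392, 17.0, 3.26, 2.88 and 7.81 TPM in the high libraries and at 506, 1984, 366, 1.77 and 536 TPM in the low ones. N1 matched the low side and P1 matched the high side. S100B, a glial calcium-binding protein, was at 1638, 238, 10.8, 3.12 and 34.6 TPM against 1098, 2295, 958, 85.7 and 1214 TPM. Their part in the differences of neuronal genes was not tested beyond the covariate fits that follow. Proliferation genes (15 of 16 lower, median -0.93), neural crest genes (6 of 7 lower, median -1.64) and anterior HOX genes (9 of 11 lower, median -1.06) were also lower. Without N1 the proliferation and neural crest medians were -2.72 and -3.06, but they turned to 0.09 and 0.10 with the mesenchyme covariate and to 0.29 and 0.20 with the glia covariate. Posterior HOX genes had a median of -0.06, whose sign changed in several refits.

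**Figure D4:**
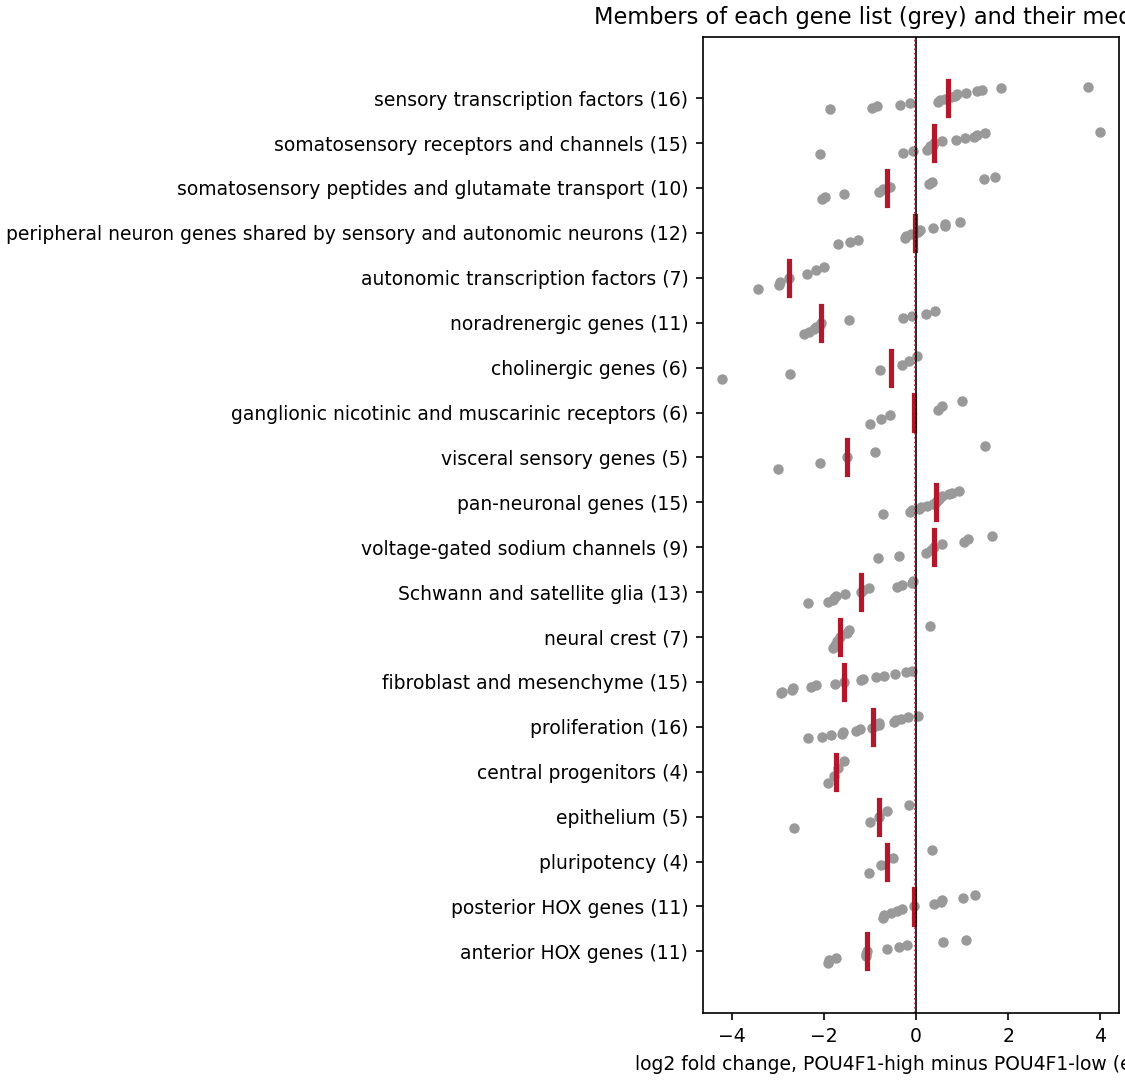
log2 fold changes (high minus low, edgeR) of the tested members of each gene list with at least 4 tested genes; grey points are genes, red bars are list medians, the dotted line is the median of all tested genes, and the number of genes is in parentheses. Autonomic factors (-2.77) and noradrenergic genes (-2.07) have the lowest medians, and sensory transcription factors (0.69) the highest.

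When the mesenchyme level of each library was added to the edgeR model, the medians of the sensory and autonomic factors kept their signs. The median of the sensory factors went from 0.69 to 0.38 and that of the autonomic factors from -2.77 to -3.89. The median standard error of a single gene in the fit without the covariate was 0.61 and 1.23. It does not measure the error of a shift in a list median, which was not estimated. At an unadjusted p under 0.05, sensory factors went from 6 to 2 and autonomic factors from 5 to 4. All tested genes went from 2604 to 3707 at that p. Whether the lists moved differently was not tested. DRGX went from 1.33 to 0.38 ± 0.41, ISL2 from 1.84 to 0.52 ± 0.54 and SHOX2 from 1.43 to 0.32 ± 0.41. The median of the receptors and channels went from 0.39 to 0.21, with 9 of 15 higher and 6 lower. Those at an unadjusted p under 0.05 went from 5 to 3. Among them TRPM8 was at 2.80 ± 0.75 and P2RX3 at 1.02 ± 0.44 with the covariate. HAND2 went from -2.95 to -4.50 ± 1.72, TH from -2.43 to -4.06 ± 1.03 and EYA1 from -1.86 to -3.85 ± 1.30. COL1A1, itself part of the covariate, went from -2.93 to -0.23 ± 0.69. In that fit only SST was called (0.00645% of genes), at -3.50 ± 0.40 (edgeR adjusted p = 0.0211). SST stood at 13358 TPM in P1 and at 457 to 1507 TPM in the other low libraries. In the fit on side alone its sign reversed without P1, and the covariate fit was not repeated without P1. With the glia level as covariate edgeR called 3 genes (0.0193%), none of them a sensory or autonomic factor.

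Without N1 and P1 together, an alternative chosen after the data were seen, edgeR called 871 genes higher and 2120 lower. ISL1 was then at 1.20 ± 0.19 (adjusted p = 0.00429), ISL2 at 2.91 ± 0.53 (adjusted p = 0.0064) and TRPM8 at 4.50 ± 0.49 (adjusted p = 0.00257) in edgeR, while HAND2 was at -2.70 ± 1.29 (adjusted p = 0.17) and TH at -1.81 ± 0.96 (adjusted p = 0.215). COL1A1 was at -7.00 ± 0.92 in the same 8 libraries. The mesenchyme levels of the sides do not overlap in these libraries, so POU4F1 side and composition cannot be told apart there.

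**Figure D5:**
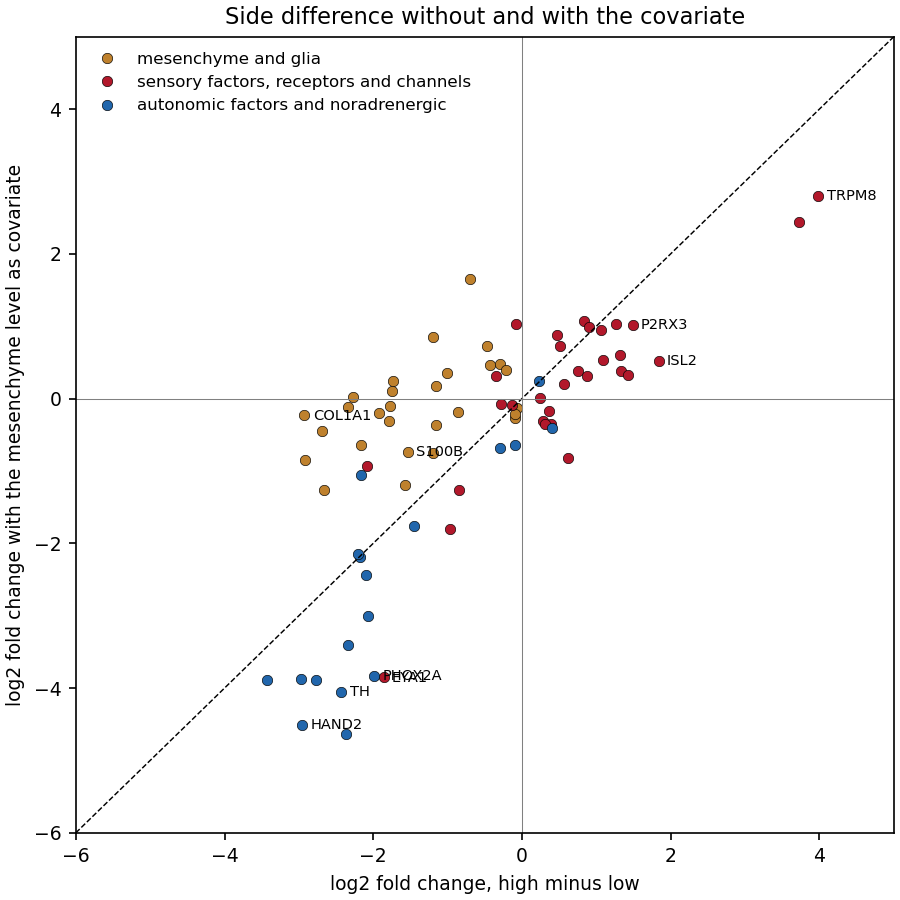
edgeR log2 fold changes, high minus low, without (x axis) and with (y axis) the mesenchyme level of each library as a covariate, for tested members of 6 lists in 3 colours; the dashed line marks equal values. Mesenchyme genes make up the covariate, and COL1A1 among them lies near 0 on the y axis (-0.23), whereas HAND2 (-4.50) and TH (-4.06) lie further below 0 than on the x axis.

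The genes with the smallest p-values were mostly outside these lists. The 12 higher and the 12 lower ones with the smallest p all had an edgeR adjusted p of 0.214. Among the higher genes, TRPM8 was joined by SCN7A, the sodium-sensing channel Nax, on chromosome 2 at 166403573 to 166494249. SCN7A stood at 24.6, 32.4, 47.4, 27.97 and 31.8 TPM in the high libraries and at 8.03, 5.80, 13.8, 6.54 and 18.4 TPM in the low ones. The sides did not overlap on either scale, N1 included. The high side lay above in this way for 2.55% of tested genes in TPM and 1.72% on the scaled CPM. The log2 fold change of SCN7A was 1.64 ± 0.30, or 1.47 ± 0.34 with the mesenchyme covariate.

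STAC, an adaptor protein of voltage-gated calcium channels, was at 86.8, 148, 186, 143 and 288 TPM against 30.3, 17.2, 38.5, 34.7 and 25.6 TPM, with a log2 fold change of 2.25 ± 0.37. ANO3, an anoctamin of sensory neurons, was at 21.2, 21.3, 31.8, 22.2 and 21.7 TPM against 3.48, 1.55, 7.19, 3.56 and 6.11 TPM, with a log2 fold change of 2.23 ± 0.37. M1 stood above the other high libraries for ANO3, and the sides did not overlap in TPM, with the high side above as for 2.55% of tested genes. PRKG1, the cyclic GMP-dependent kinase of nociceptors, was at 24.8 to 43.0 TPM against 8.70 to 15.6 TPM. IL6ST, the gp130 receptor subunit shared by interleukin-6 family cytokines, was at 47.7 to 144 TPM against 16.2 to 44.5 TPM. OBI1, a ubiquitin ligase that acts at replication origins, was at 30.5 to 60.9 TPM against 12.7 to 23.9 TPM, a log2 fold change of 0.96 ± 0.19. The other higher genes were OGFRL1, GRIP1, EFEMP1, LRRC1 and SESTD1, with log2 fold changes from 1.18 to 2.37.

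Among the lower genes, HSPB3, a small heat shock protein, was at 1.74, 0.548, 0.328, 2.13 and 0.462 TPM in the high libraries and at 15.4, 5.33, 7.55, 15.2 and 13.2 TPM in the low ones. Its log2 fold change was -3.73 ± 0.68, and it was -3.78 ± 0.67 with the mesenchyme covariate. SYT17, a synaptotagmin family member, was at 6.87, 2.89, 5.51, 21.3 and 4.95 TPM against 28.7, 35.5, 66.6, 21.6 and 72.2 TPM. M2 lay close to P1, and without M2 SYT17 was called at -3.12 ± 0.33 (edgeR adjusted p = 0.0258). DKK2, a secreted WNT antagonist, was at 0.0366 to 0.105 TPM against 0.194 to 3.68 TPM, with a log2 fold change of -3.84 ± 0.74. PCOLCE, an enhancer of collagen processing, and IDH2, the mitochondrial isocitrate dehydrogenase, were at 0.455 to 2.16 TPM against 1.67 to 5.69 TPM and at 64.4 to 71.9 TPM against 59.3 to 170 TPM. TCEAL3, SHISA4, CDK5RAP3, HEBP1, LYPD6B, FNDC9 and GPR143 completed the 12, with log2 fold changes from -2.41 to -1.02.

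The promoters of these genes were searched for TAATTA, a palindromic core that many homeodomain proteins recognise, in the 250 bases before the RefSeq start (GRCh38.p14). The core was present in 4.35% of 35116 such windows, and in 6 of the 51 genes named here or shown in a plot that had an entry. The percentage counts windows and the 6 counts genes, so they cannot be compared as rates, and enrichment was not tested. The core is shown for the genes with the smallest p-values that hold it and for HAND2, a choice made after their values were seen. In capitals is the core, which lies 178 bases before the start in TRPM8 (chr2:233917123-233917372, plus strand), 225 bases in SCN7A (chr2:166486972-166487221, minus strand), 175 bases in HAND2 (chr4:173530230-173530479, minus strand) and 60 bases in HSPB3 (chr5:54455449-54455698, plus strand).
TRPM8: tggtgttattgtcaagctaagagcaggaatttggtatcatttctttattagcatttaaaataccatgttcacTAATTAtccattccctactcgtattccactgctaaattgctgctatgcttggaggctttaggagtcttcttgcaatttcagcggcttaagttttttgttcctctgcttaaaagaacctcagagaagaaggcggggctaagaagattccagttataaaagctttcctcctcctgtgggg
SCN7A: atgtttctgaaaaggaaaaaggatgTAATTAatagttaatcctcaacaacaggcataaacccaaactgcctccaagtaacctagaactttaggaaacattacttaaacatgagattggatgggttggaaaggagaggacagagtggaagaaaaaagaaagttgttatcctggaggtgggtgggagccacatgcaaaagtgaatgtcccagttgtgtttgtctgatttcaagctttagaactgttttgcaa
HAND2: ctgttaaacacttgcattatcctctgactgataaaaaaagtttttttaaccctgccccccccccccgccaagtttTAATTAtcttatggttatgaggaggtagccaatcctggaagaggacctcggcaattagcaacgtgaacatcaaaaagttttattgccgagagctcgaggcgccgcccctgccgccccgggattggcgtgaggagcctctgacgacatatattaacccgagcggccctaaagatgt
HSPB3: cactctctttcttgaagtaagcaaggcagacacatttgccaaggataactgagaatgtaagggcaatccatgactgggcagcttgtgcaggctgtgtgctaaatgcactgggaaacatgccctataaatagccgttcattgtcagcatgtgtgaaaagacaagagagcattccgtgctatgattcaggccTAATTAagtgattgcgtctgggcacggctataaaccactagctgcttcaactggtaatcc
TRPM8 and SCN7A were higher and HAND2 and HSPB3 lower in the high libraries, so genes with the core lay on both sides of the comparison. The SCN7A start of this window lies inside the span of its gene model. A match of letters is a description and not a binding site.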

How the data were processed

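The authors deposited estimated counts, which are whole numbers, and TPM values per gene and per transcript for 10 libraries. The submitters' processing notes name kallisto 0.50.1 and GRCh38.p14. Per the labels' protocols, cDNA came from the Clontech Ultra Low v4 kit and libraries from NexteraXT. The step from transcripts to genes is not given in the sources used here. Without strand marks, overlapping antisense genes cannot be told apart. A blank entry (0.733% to 1.66% of counts) was left out.

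The groups in the labels are the protocols, and the sides were computed from gene TPM at a threshold of 6. Gene lists, members, the threshold and the rules for naming genes were chosen with earlier results of these data known. Counts of 15507 genes kept by filterByExpr, with POU4F1 left out of the tests, were scaled by TMM and fitted in edgeR 4.0.16 (R 4.3.3) with glmQLFit and glmQLFTest on side alone, two-sided, with Benjamini-Hochberg adjustment at 0.05. The common biological coefficient of variation was 0.533. Alternatives used DESeq2 1.42.0, limma 3.58.1 on log2(TPM + 1) and log2(TPM + 0.1), other scalings and filters, covariates (protocol, replicate number, and mesenchyme, glia and pan-neuronal levels), a continuous POU4F1 level, and fits without each library. Members of the sensory, autonomic and transmitter lists could be named, with the 12 higher and 12 lower genes of smallest p among those at a mean of at least 1 TPM on a side, and up to 4 genes of smallest p from each other list. COL1A1, S100B and PRPH fall outside that rule and were chosen after their values were seen. On simulated data for this comparison (15508 genes), edgeR called 3 of 68 genes changed by 1 on the log2 scale, 43 of 66 changed by 2 and 61 of 66 changed by 4, with 4 calls among 15308 unchanged genes. Some listed genes are not reported here. No 2 libraries of a protocol agreed within sampling noise (lowest chi-square per degree of freedom 124.1).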

Additional observations from a re-analysis of the deposited data

Results flagged for a closer look

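In groups of 5 libraries, a value was singled out where its gap to the nearest library exceeded 0.71 of the group's range. This was so for 29 of 132 tests, which are not independent. The cut-off gives about 1 in 20 by chance only where values are normally distributed. It was applied here to TPM without a log scale, so that rate cannot be set against the 29. On the high side N1 stood apart for 9 genes: it was low for P2RX3 (173 TPM) and SLC17A7 (5.74 TPM), and high for GFRA3 (777 TPM), TAC1 (1693 TPM), CNP (114 TPM), PMP22 (691 TPM), COL1A1 (392 TPM), S100B (1638 TPM) and PDGFRB (2.94 TPM). CNP and PMP22 are myelin genes of glia and PDGFRB a receptor of mesenchymal cells. M2 stood apart on the high side for autonomic genes: PHOX2A (17.4 TPM), HAND2 (7.94 TPM), TFAP2B (2.71 TPM), TH (273 TPM), DBH (38.9 TPM), SLC18A2 (8.73 TPM) and SLC5A7 (7.70 TPM) were highest there. M2 was also highest for SYT17 (21.3 TPM) and lowest for EFEMP1 (4.14 TPM).

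The other high libraries set apart were P3 for NTRK2 (73.6 TPM) and IDH2 (71.9 TPM) and M1 for ANO3 (31.8 TPM). Among low libraries N2 was highest for GATA3 (3.46 TPM), SLC18A2 (37.1 TPM) and VIP (18.3 TPM), and N3 for GFRA3 (2558 TPM) and COL1A1 (1984 TPM). P1 was highest for SST (13358 TPM) and lowest for CDK5RAP3 (19.6 TPM), and P2 was highest for DKK2 (3.68 TPM).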

How the results depend on the processing

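The call of 0 genes held in edgeR under other scalings, filters, the protocol covariate and the pan-neuronal covariate, and in limma. It did not hold with DESeq2 (473 genes), the continuous POU4F1 level (681), the mesenchyme covariate (1) or the glia covariate (3). Leaving out 1 library gave 0 to 1 calls, with 1 call without N1 and 1 without M2, and leaving out N1 and P1 together, chosen after seeing the data, gave 2991. Genes at an unadjusted p under 0.05 went from 2604 to 1248 with the replicate block, to between 1611 and 3780 without 1 library (1668 without N2, 1611 without N3 and 1677 without M1) and to 5320 without N1 and P1. Same-numbered libraries had deviations correlated between -0.657 and 0.512, over 0.1 in 4 of 9 pairs, and 1 of 10 libraries correlated best with its own number. The library names run in sets by replicate number, with N4 last, and the labels do not say what the sets mean. These correlations cannot decide whether same-numbered libraries were handled together. The replicate block called 0 genes.

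limma on log2(TPM + 1) put the median of all genes at 0.13, so TPM comparisons lean toward the high side, and split genes at an unadjusted p under 0.05 into 1695 higher and 913 lower. The autonomic factor median was -1.31 in that fit, -5.26 with protocol, -5.40 with glia and -1.48 per unit of the continuous level, and -4.12 to -2.33 without 1 library. The noradrenergic median was -0.97 in that limma fit, -1.10 per unit of the continuous level and -2.98 to -1.29 without 1 library. The receptor and channel median was 0.27 to 0.98 without 1 library, and -0.07 with the pan-neuronal covariate. PRPH reversed with the replicate block (-0.14), with mesenchyme (-0.41), glia (-0.31) and pan-neuronal (-0.29) covariates, and in refits without 1 library (-0.15 to 0.46). SST, at -2.34 to 1.03 without 1 library, reversed without P1 (1.03) and without N1 and P1 (1.34). The cause of these shifts was not tested. Counts of 0 limit the autonomic factors in N4 and P3.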

Other observations

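OBI1, among the 12 higher genes, lies 10.7 kb from POU4F1 on chromosome 13 (78614289 to 78659155 of GRCh38.p14). Of 10 tested genes within 2000 kb of POU4F1, 6 were higher in the high libraries. OBI1 was the one whose sides did not overlap in TPM, where the high side lay above for 396 of all tested genes (2.55%). SLAIN1, at 834.1 kb, had a log2 fold change of 0.49 ± 0.23, and RBM26, at 708.3 kb, of 0.43 ± 0.24. Among 262 tested genes of chromosome 13, 64.5% were higher and the median log2 fold change was 0.24, the highest of the 22 autosomes, whose medians went down to -0.20 on chromosome 22. SLAIN1, RBM26 and the chromosome were looked at after the values were seen, and no test was made. The deposited transcript table held 1 transcript of POU4F1, so its gene level rests on that transcript.

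With the glia level as covariate, edgeR called SST (-3.77 ± 0.46, adjusted p = 0.0243), GMPR (-3.04 ± 0.38, adjusted p = 0.0243) and GHRH (-7.50 ± 0.99, adjusted p = 0.0305), all lower in the high libraries. For SST the low side held the outlying value of P1, without which its sign reversed in the fit on side alone. SST encodes somatostatin, GHRH the growth hormone releasing hormone and GMPR a guanosine monophosphate reductase. GMPR and GHRH are named because they were called, after their values were seen. HOXB9, a posterior HOX gene, was at 10.7 to 65.2 TPM in the high libraries and 8.85 to 15.0 TPM in the low ones (log2 fold change 1.01 ± 0.45), and HOXB5 at 3.80 to 12.4 TPM against 8.19 to 21.8 TPM (-1.08 ± 0.38), neither past the adjusted threshold in edgeR.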
